A study of Homo sapiens with 12 samples.

Results

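In LNCaP cells, 728 FOXA1-bound regions had a peak in both libraries treated with the vehicle DMSO and in both libraries treated with P5091, and had none in 3 libraries treated with EPZ-6438. They were found by merging the peaks of 8 FOXA1 libraries that shared at least 1 base, which gave 140968 regions in all. A region was kept when it was called in DMSO replicates 1 and 2 and in P5091 replicates 1 and 2, and was called neither in EPZ-6438 replicates 1 and 2 nor in replicate 2 of the combination of both compounds. The regions were thus chosen by peak calls alone, in 7 libraries, and combination replicate 1 took part only in the merging. The 728 regions were 1.6% of the 45511 regions called in all 4 libraries without EPZ-6438, and 37729 of those 45511 were called in all 7 libraries used. Absence here means that the peak caller listed no peak. The peak lists give no tag count where no peak was called, so the residual signal of the 728 regions with EPZ-6438 is not known.

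FOXA1 is a forkhead pioneer factor, which can bind its sites in closed chromatin and opens them for other factors, among them the androgen receptor of luminal prostate cells. EPZ-6438 inhibits EZH2, the catalytic subunit of Polycomb repressive complex 2 and a histone H3 methyltransferase. P5091 inhibits USP7, a protease that removes ubiquitin from proteins. The series title places the libraries in a study of FOXA1 protein stability under Polycomb and a BUB3/USP7 complex.

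All libraries came from LNCaP, a single androgen-responsive human prostate cancer line, and the labels do not say whether replicates were separate cultures. For FOXA1 chromatin immunoprecipitation and sequencing, cells were grown for 7 days with DMSO, with EPZ-6438 at 1 uM, with P5091 at 3 uM, or with both at those doses, with 2 libraries per treatment and 1 input library that served both replicates. In a separate experiment, HA-tagged protein was precipitated 5 days after infection, with 1 library each for a vector control (pGIPZ), a FOXA1 knockdown (shFoxA1), the knockdown with wild-type FOXA1 (WT) and the knockdown with the K295A form. The WT and K295A cells made FOXA1 from a transgene, so HA peaks show where the introduced protein was found, not the cells' own FOXA1.

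The FOXA1 libraries held 12299238 to 22589685 tags, with EPZ-6438 replicate 2 the smallest and EPZ-6438 replicate 1 the largest. Combination replicate 1 stood apart, with 30811 peaks against 68504 to 84423 in the other 7 and with 5.26% of its tags in peaks against 18.86% to 21.2%. The minimum score that a peak needed, in tags, was set by the caller library by library. Expressed per 1e7 tags, this minimum was 8.04 and 6.39 in the DMSO libraries, 7.83 and 6.66 with P5091, 6.20 and 8.13 with EPZ-6438, and 7.89 in combination replicate 2. The minimum of EPZ-6438 replicate 1 was therefore the lowest of these 7 and that of EPZ-6438 replicate 2 the highest. EPZ-6438 replicate 2 nevertheless had the most peaks, 84423, and the largest share of tags in peaks, 21.2%.

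The 728 regions were weak FOXA1 sites. Their median normalized tag count, the tags in a peak scaled to a library of 1e7 tags, was 15.4 in DMSO replicate 1, 12.2 in DMSO replicate 2, 14.4 in P5091 replicate 1 and 12.1 in P5091 replicate 2. The 37729 regions called in all 7 libraries had medians of 30.7, 27.3, 29.4 and 28.4 in the same libraries. Both replicates of both treatments thus placed the 728 regions at the lower level, although the ranges overlapped widely. In the 728 regions the tag count ran from 7.31 to 85.6 in DMSO replicate 1, from 5.81 to 58.1 in DMSO replicate 2, from 6.52 to 70.5 in P5091 replicate 1 and from 6.05 to 45.4 in P5091 replicate 2. These tag counts come from the libraries that chose the regions and are given as a description, without a test.

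**Figure D1:**
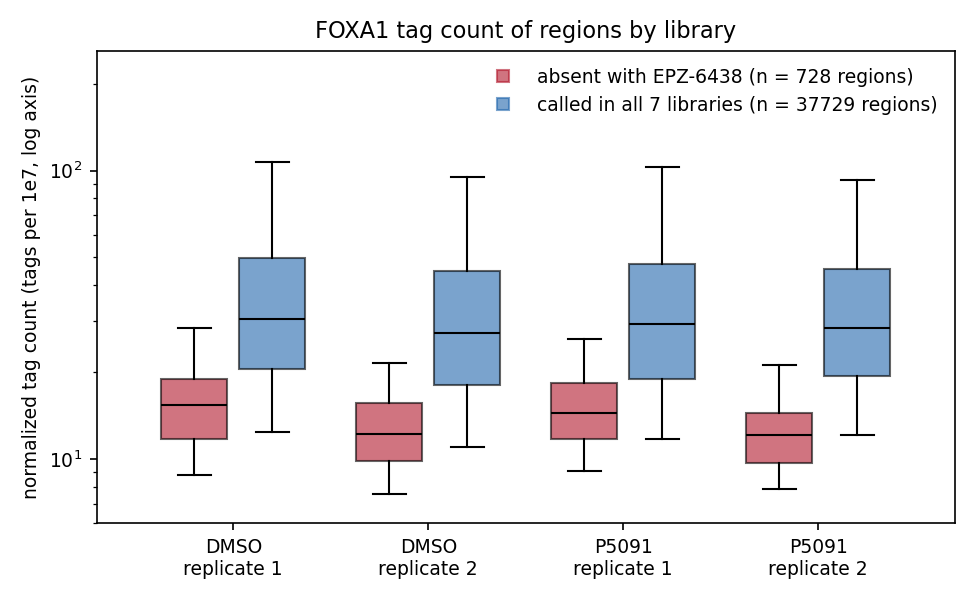
Normalized tag count (log axis) of the 728 regions absent with EPZ-6438 and of the 37729 regions called in all 7 libraries, in each library without EPZ-6438; boxes span the quartiles, lines the medians and whiskers the 5th to 95th percentiles. In all 4 libraries the median of the absent regions, 12.1 to 15.4, lies below that of the regions called throughout, 27.3 to 30.7.

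The share of regions without an EPZ-6438 call was highest among the weakest sites. Among regions with a mean tag count under 10 over the 4 libraries, 41 of 225 were among the 728, a share of 18.2%. The share was 7.12% at 10 to 15 tags (451 of 6336), 1.96% at 15 to 20 (176 of 8993), 0.447% at 20 to 30 (52 of 11623) and 0.0436% at 30 and over (8 of 18334). It thus fell in each step of tag count, and the band from 10 to 15 tags alone held 62.0% of the 728 regions. Missing calls were scattered over the 3 EPZ-6438-treated libraries: 4941 of the 45511 regions were called in 2 of them, 2113 in 1 and 728 in none. Of the 2113 regions with 1 such call, the call was in EPZ-6438 replicate 1 for 769, in EPZ-6438 replicate 2 for 512 and in combination replicate 2 for 832. Without combination replicate 2 in the choice there would be 1560 regions, without EPZ-6438 replicate 1 there would be 1497 and without EPZ-6438 replicate 2 there would be 1240, and with peaks of a score of at least 20 alone there were 443.

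The same choice made for P5091 gives the scale of this count. Regions called in both DMSO and both EPZ-6438 libraries, and in neither P5091 library nor combination replicate 2, numbered 246 of 44840, or 0.549%. They too were weak, with median tag counts of 13.2 and 11 in the DMSO libraries and 12 and 13 in the EPZ-6438 libraries. Of these 246 regions, 22 of 202 lay under 10 tags (10.9%), 175 of 5928 at 10 to 15 (2.95%), 44 of 9099 at 15 to 20 (0.484%), 5 of 11788 at 20 to 30 (0.0424%) and 0 of 17823 at 30 and over. More regions were absent with EPZ-6438 than with P5091 in each band of tag count. The comparison has no replicate error, since each count uses all libraries of its groups at once, and the 2 counts share the DMSO libraries and combination replicate 2. The opposite choice, called in all 3 EPZ-6438-treated libraries and in none of the 4 others, gave 1172 regions, more than the 728.

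**Figure D2:**
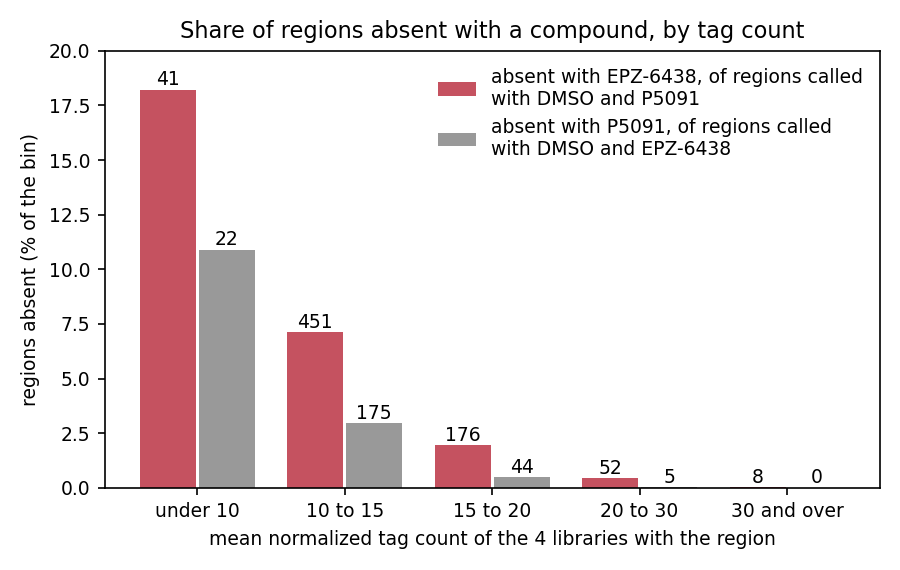
Percentage of regions absent with EPZ-6438 (red) and absent with P5091 by the same choice (grey) in 5 bands of mean normalized tag count; the number on each bar counts the regions. Both shares fall from the weakest band, 18.2% and 10.9%, to the strongest, where 8 and 0 regions were absent.

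Many of the 728 regions also lay near the limits of the peak caller in the libraries that did call them. The caller's score was within 5 tags of the library minimum in 300 of the 728 regions in DMSO replicate 1 (41.2%), 316 in DMSO replicate 2 (43.4%), 324 in P5091 replicate 1 (44.5%) and 418 in P5091 replicate 2 (57.4%). Of the regions called in all 7 libraries, 5.10% to 8.64% lay that close. In 310 of the 728 regions (42.6%) the lowest of the 4 scores, scaled to 1e7 tags, reached 8.13, the highest minimum of the 3 EPZ-6438-treated libraries, against 93.3% of the regions called in all 7. A lowest score of at least 1.5 times that minimum was seen in 51 regions (7.01%, against 70.1%), and one of at least 2 times in 10 regions (1.37%, against 51.8%). Of the 45511 regions, 41736 were called in EPZ-6438 replicate 1, 41780 in EPZ-6438 replicate 2 and 41666 in combination replicate 2. The part that the minimums and the depth of EPZ-6438 replicate 2 play in the count of 728 was not tested.

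The weakest members and the strongest regions just outside the choice show its 2 edges. The region chr4:98487039-98487443 (hg19, as are all positions) had the lowest mean, with 8.78 and 7.55 tags with DMSO and 9.78 and 6.66 with P5091. It was followed by chr8:113212591-113213039, with 7.31 and 7.55 tags with DMSO and 11.1 and 7.26 with P5091. Last of the 3 weakest, chr1:22627784-22628167, had 9.51 and 8.13 tags with DMSO and 7.83 and 7.87 with P5091. In all 3, at least 1 library had a score of 11, the minimum of both DMSO libraries and of P5091 replicate 2. Just outside, chr18:21431542-21431909 had 92.1 and 63.3 tags with DMSO and 93.9 and 41.2 with P5091 but kept a peak of 40.2 tags in combination replicate 2. The region chr2:178794410-178794787 had 55.6 and 54.0 tags with DMSO and 55.4 and 50.8 with P5091 and kept a peak of 36.3 tags in EPZ-6438 replicate 1. Another such region, chr2:189231857-189232243, with 87.8 and 58.1 tags with DMSO and 88.7 and 36.3 with P5091, kept 25.2 tags in EPZ-6438 replicate 1. These 3 regions had higher mean tag counts than all but 1 member, and the call they kept was below both of their DMSO values.

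Enrichment over input was lower at the 728 regions than at regions called throughout. The median fold over input, the caller's own ratio for each peak, was 15.6 and 16.4 with DMSO and 14.8 and 15.02 with P5091, which averages to 15.5 ± 0.741 (SD, n = 4 libraries). At regions called in all 7 libraries the medians were 27.6 and 31.1 with DMSO and 24.7 and 29.2 with P5091, on average 28.2 ± 2.70 (SD, n = 4). Every library median of the 728 lay below every one of the comparison set. Over the local window of 10000 bases the fold was 10.5 ± 0.396 (SD, n = 4) against 20.9 ± 1.69. Peaks had to reach 4-fold over both. A fold over input under 6 was found for 76 to 90 of the 728 regions (10.4% to 12.4%), depending on the library. Of the regions called in all 7 libraries, 3.59% to 4.38% had such a fold. These ratios enter the caller's decision and belong to the choice, so no test was made.

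The single highest fold over input, 131.32 in P5091 replicate 1, was at chr10:27835921-27836330, one of the strongest members, where the other 3 libraries had 31.6, 24.5 and 62.6. Ranked by the lowest fold over the 4 libraries, the top 5 were sites of 13.9 to 32.6 tags. At chrX:39196674-39197067 the fold over input was 61.8 and 52.6 with DMSO and 45.0 and 68.4 with P5091, with 20.5, 17.4, 32.6 and 24.8 tags. The region chr13:57899089-57899469 had folds of 46.4, 43.8, 48.6 and 46.7 in the same order at 15.4, 14.5, 17.6 and 16.9 tags. Values at chr12:131818771-131819270 were 61.8, 50.8, 41.4 and 48.4-fold at 20.5, 16.8, 15 and 17.6 tags. All 3 stayed at 41.4-fold or more in each of the 4 libraries. A wider spread was seen at chr1:234487365-234487797, with 55.2 and 92.9-fold for DMSO and 39.6 and 71.8-fold for P5091. The values at chr8:111745836-111746241 lay closer together, at 48.6, 45.6, 43.2 and 38.4-fold. Of these 5, chr8:111745836-111746241 was the farthest from a peak of the EPZ-6438 libraries, at 76223 bases. It was followed by chr12:131818771-131819270 at 45414 bases and chr1:234487365-234487797 at 19351 bases. Such a peak lay 236 bases from chrX:39196674-39197067 and 760 bases from chr13:57899089-57899469. A peak of combination replicate 2 lay closer to chr8:111745836-111746241, at 18583 bases, and to chr1:234487365-234487797, at 671 bases.

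The strongest members mostly had a peak with EPZ-6438 close by. Of the 10 members with the highest mean tag counts, 5 had an EPZ-6438 peak within 500 bases and 9 within 2000 bases, against 155 of all 728 within 2000. At chr10:27835921-27836330 the tag counts were 62.9 and 48.8 with DMSO and 47.6 and 45.4 with P5091. An EPZ-6438 peak began 53 bases from its edge, in the region chr10:27836361-27836745, which held 34.5 and 42.3 tags with EPZ-6438, 10.0 and 30.8 with the combination, and no peak with DMSO or P5091. Here the libraries without EPZ-6438 and those with it each had a peak, at adjacent positions that shared no base.

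A like arrangement was found at chr6:137723322-137723719, with 57.8 and 58.1 tags with DMSO and 39.1 and 41.2 with P5091. Its neighbour chr6:137723784-137724146, 65 bases away from it, held 31.9 and 52.8 tags with EPZ-6438 and 11.3 and 30 with the combination, and again no peak with DMSO or P5091. At chr6:126073855-126074222 the counts were 34.4 and 48.2 with DMSO and 32.0 and 23.6 with P5091, and the region chr6:126074292-126074654 next to it held 15.1 and 16.3 tags with EPZ-6438 and 14.2 in combination replicate 2. In these 3 places the choice counted a region as absent although a region within 100 bases was called in all 3 EPZ-6438-treated libraries used. The caller keeps a minimum distance between the peak centres of a library, 548 to 730 bases here per the file headers, so it cannot list both of 2 closer positions.

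The top member, chr15:93160855-93161245, had 85.6 and 51.7 tags with DMSO and 70.5 and 35.7 with P5091. Its fold over the local window was only 4.91 and 5.34 with DMSO and 4.22 and 4.30 with P5091, close to the 4-fold minimum, although its fold over input was 19.5 to 48.6. The nearest EPZ-6438 peak, 1585 bases away, lay in chr15:93162808-93163192, which was called in all 8 libraries, with 58.5 and 33.1 tags with DMSO and 38.1 and 25.2 with EPZ-6438. A low local fold beside a called neighbour was also found at chr1:182358769-182359136, where tags were 32.9 and 42.4 with DMSO and 31.3 and 30.9 with P5091 and the local fold 4.83, 6.67, 4.87 and 5.22 in that order. The neighbouring region chr1:182360227-182360608 held 96.5 and 129.5 tags with DMSO and 112.4 and 69.1 with EPZ-6438.

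The exception among the 10 was chr10:80095308-80095673, whose nearest EPZ-6438 peak was 31891 bases away. It had 43.9 and 31.9 tags with DMSO and 54.8 and 21.8 with P5091, with the replicates of P5091 further apart than the treatments. Its fold over input was 33.1, 48.2, 75.6 and 30.04, and its fold over the local window 28.3, 24.97, 39.2 and 16.4, in the same order. These values were well above the caller's 4-fold limits in all 4 libraries. The last 2 of the 10, chr1:169539246-169539689 and chr13:95802456-95802835, had 24.9 to 30.8 and 20.9 to 36.6 tags over the 4 libraries and lay 1180 and 916 bases from an EPZ-6438 peak.

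Across all 728 regions the nearest EPZ-6438 peak lay at a median of 7257 bases (95% interval of the median 6532 to 8115, range 2 to 574029), edge to edge. It was within 500 bases for 39 regions (5.36%), within 1000 for 76 (10.4%), within 5000 for 281 (38.6%) and within 10000 for 444 (61.0%). With combination replicate 2 included, 92 regions had a peak of an EPZ-6438-treated library within 1000 bases and 636 had none. Nearly all of these 92 regions were weaker sites: a peak within 1000 bases was found for 87 of the 720 members under 30 tags and for 5 of the 8 with 30 or more, where the rate was higher. A peak centre closer than the caller's minimum distance was found in at least 1 of the 3 libraries for 23 regions, 4 of those 8 and 19 of the 720. Of the 81 members with an EPZ-6438-called neighbouring region within 1000 bases, that neighbour was called in both DMSO libraries for 39, in 1 for 16 and in none for 26.

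**Figure D3:**
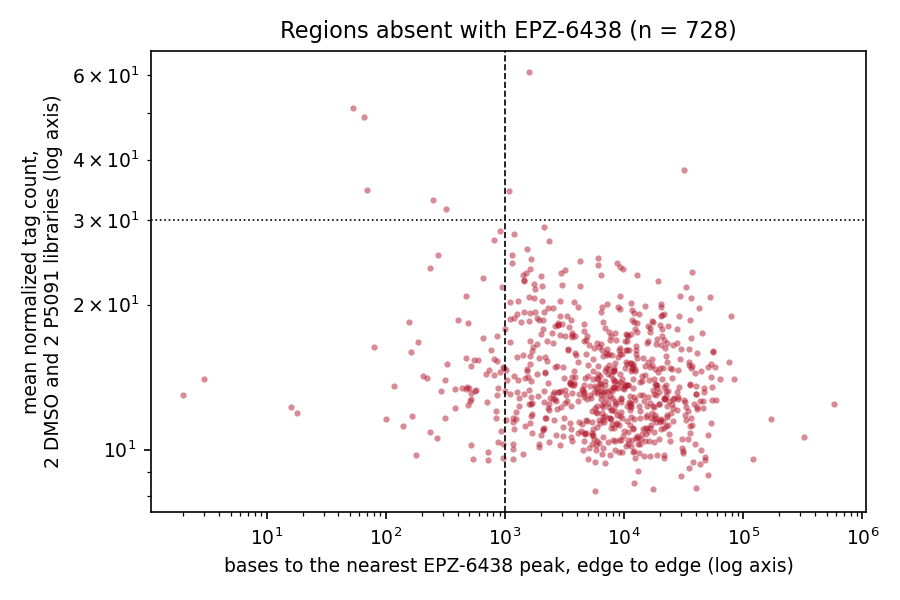
Distance from each of the 728 regions to the nearest EPZ-6438 peak (bases, log axis) against its mean normalized tag count over the 2 DMSO and 2 P5091 libraries (log axis); the dashed line marks 1000 bases and the dotted line 30 tags. Most points lie below 20 tags and beyond 1000 bases, and all but 1 of the 8 points above the dotted line lie within 2000 bases.

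The regions farthest from EPZ-6438 peaks were weak. At chr7:63193152-63193526, 574029 bases from the nearest one, tag counts were 11 and 15.7 with DMSO and 10.4 and 12.7 with P5091. Combination replicate 1 had a peak of 8.13 tags there, and combination replicate 2 had one 43642 bases away. The regions chr7:144938508-144938883 and chr20:29920790-29921172 lay 324671 and 169796 bases away and had 9.13 to 14.4 tags in the 4 libraries.

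Most of the 728 regions, which were 1.6% of the 45511, had no other member close by. The nearest other member lay at a median of 1222100.5 bases (range 996 to 21043590), and 4 regions had another member within 10000 bases, 32 within 50000 and 60 within 100000. In the order of the 45511 regions, 704 members stood alone and the others formed 12 pairs of direct neighbours, with no longer run. How many pairs a share of 1.6% gives by itself was not computed, so the spacing is a description. The closest pair, chr6:76656065-76656508 and chr6:76657504-76657890, lay 996 bases apart, with 20.5 and 16.3 tags and 31.4 and 15.7 tags with DMSO. A second pair, chr16:58718600-58719034 and chr16:58754838-58755252, had 16.1 and 25 tags and 27.1 and 12.2 tags with DMSO. In another, chr5:149646349-149646753 had 15.4 and 12.2 tags and chr5:149723706-149724187 had 27.1 and 16.3.

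Each of the 24 chromosomes held members. Their share of the 45511 regions ran from 1.30% on chromosome 21 to 2.13% on chromosome 20, and all 24 exact binomial 95% intervals held the overall 1.60%. Their distance to the nearest region called in all 7 libraries, median 19360.5 bases, was close to the 19912 bases between such regions themselves, and 15.1% against 14.5% had one within 5000 bases. The width of the merged regions was alike, with medians of 421 bases for the 728 and 418 for the 45511.

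Regions near a member that kept their calls were read for their tag counts. The median log2 difference of EPZ-6438 from DMSO was -0.07 at the 110 nearest called-throughout regions within 5000 bases, -0.15 at the 210 within 10000 bases and -0.15 at the 562 within 50000 bases, against -0.08 over all 37729. In replicate 1 it was -0.22, -0.28 and -0.29 at these neighbours and -0.21 over all. In replicate 2 it was 0.06, 0.01 and -0.00 at the neighbours and 0.05 over all. The negative level over all regions in replicate 1 was thus not met in replicate 2. In both replicates, however, the neighbours within 10000 and 50000 bases lay below the value over all regions. The median difference of P5091 from DMSO was -0.02, -0.07 and -0.05 at the 3 distances against -0.02 over all, so it too was lower within 10000 and 50000 bases. These differences were not tested.

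Combination replicate 1 was not used in the choice, although its peaks were among those merged into regions. It had a peak at 32 of the 728 regions, or 4.40% (exact binomial 95% interval 3.03 to 6.15), against 55.8% of the 45511. Within bands of mean tag count, taken from libraries of the choice, the share remained lower than at the other regions called without EPZ-6438. It was 3.99% (2.38 to 6.23) against 14.2% at 10 to 15 tags and 5.68% (2.76 to 10.2) against 27.7% at 15 to 20. At 20 to 30 tags it was 5.77% (1.21 to 15.9) against 49.9%. The intervals of the 2 sets did not overlap in these 3 bands. Under 10 tags they did, with 0 of 41 members (0 to 8.60) against 4.89% (2.26 to 9.08). At 30 and over it was 1 of 8 members (0.316 to 52.7) against 88.8%. The 246 regions absent with P5091 were called in this library at 3.66% (1.69 to 6.83), which overlapped the share of the 728. At 10 to 15 and 15 to 20 tags that share was 2.86% and 9.09%. The share of members was 12.1% when combination replicate 2 was left out of the choice and 0.677% with peaks of a score of at least 20 alone. Both sets lacked a call in combination replicate 2 by their choice, and this is a single library with few peaks, so the shares are counts within it and not a test of treatment.

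The 32 peaks were small, with 6.88 to 15 tags and a median of 8.75. The strongest member with one was chr7:16338698-16339237, where combination replicate 1 had 14.4 tags against 43.9 and 21.5 with DMSO and 45.7 and 15.1 with P5091. At chr9:3240734-3241136 it had 10.6 tags against 30.7 and 22.6 with DMSO and 23.5 and 24.8 with P5091. At chr12:13520900-13521396 it had 8.75 tags against 21.9 and 29.6 with DMSO and 19.6 and 26.6 with P5091. In all 3 the combination library was below each of the 4 others, in a library with 5.26% of its tags in peaks.

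Peaks of introduced FOXA1 were found at close to 1 in 2 of the regions. The WT protein had an HA peak at 360 of 728 (49.5%, exact binomial 95% interval 45.8 to 53.1), against 80.9% of the 45511. The K295A form had one at 336 (46.2%, 42.5 to 49.9), against 78.6%. Without introduced FOXA1 there was 0 of 728 in both the vector control and the knockdown, which allows a share of up to 0.412% by a floor of 3 counts (exact 95% upper limit 0.505%), against 0.033% and 0.0352% of the 45511. The 2 transgenic libraries stood far above both controls, which had only 982 and 971 peaks in all, against 97120 for WT and 81607 for K295A. The intervals of WT and K295A overlapped. Both were read at the same 728 regions, so this overlap is not a comparison of the 2 forms. With HA peaks of a score of at least 17 alone the shares were 22.9% for WT and 22.1% for K295A. Both forms were found at 259 regions (35.6%), the WT alone at 101, K295A alone at 77 and neither at 291 (39.97%, against 13.3% of the 45511).

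The gap in HA overlap differed between bands of FOXA1 tag count and was smaller than over all regions in the 2 bands that held most members. At 10 to 15 tags the WT share was 44.6% (39.9 to 49.3) at the 728 regions and 53.6% (52.3 to 54.9) at the other regions called without EPZ-6438, and at 15 to 20 tags 59.7% (52.0 to 67.0) and 69.2% (68.2 to 70.1). For K295A it was 39.2% (34.7 to 43.9) and 47.9% (46.6 to 49.2) at 10 to 15 tags. At 15 to 20 tags K295A gave 60.2% (52.6 to 67.5) and 64.6% (63.6 to 65.6), where the intervals overlapped. At 20 to 30 tags the WT share was 63.5% (49.0 to 76.4) at 52 members against 82.3%, and that of K295A 67.3% (52.9 to 79.7) against 79.9%. At 30 and over, 4 of 8 members had a peak of each form, 50% (15.7 to 84.3), against 96.2% of the others, a wider gap than over all regions. Under 10 tags the order turned, with WT at 41.5% (26.3 to 57.9) of 41 members against 38.04% and K295A at 34.1% (20.1 to 50.6) against 28.8%, and the intervals were wide. The 246 regions absent with P5091 had WT and K295A shares of 43.9% (37.6 to 50.3) and 37.8% (31.7 to 44.2), and the 1172 regions called only with EPZ-6438 had 25.5% (23.04 to 28.1) and 20.1% (17.8 to 22.5). The last 2 shares lay below those of the 728 with no overlap of intervals, while the intervals of the P5091 set overlapped theirs. All these intervals cover the counting of regions only, within a single library of each HA form. Their overlap or lack of it is therefore a description and no test between sets. The comparisons with the P5091 set and with the regions called only with EPZ-6438 were made over all tag counts, without matching. The HA libraries came from cells without EPZ-6438, so regions called only with EPZ-6438 had no HA library of their own condition.

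Where WT had a peak at one of the 728 regions, its median HA tag count was 14.9, against 22.9 at regions called in all 7 libraries. By band of FOXA1 tag count the WT medians of the 2 sets were 13.7 and 13.7 at 10 to 15 tags, 16.0 and 15.3 at 15 to 20, 15.3 and 18.3 at 20 to 30, and 42.4 and 32.1 at 30 and over, where 4 members had a WT peak. For K295A they were 15.1 and 13.6, 13.6 and 15.1, 14.3 and 17.3, and 40.7 and 31.6 in the same bands. Which set was higher differed between bands in both libraries. Among the 10 strongest members, 5 had WT and 5 had K295A peaks. The region chr6:137723322-137723719 had 42.0 WT and 46.0 K295A tags, and chr10:27835921-27836330 had 42.7 and 40.7. The region chr1:234487365-234487797 was high in both HA libraries, with 65.6 WT and 51.2 K295A tags. No HA peak was found at chr1:182358769-182359136, chr6:126073855-126074222 and chr4:95437826-95438213, the 3 strongest members with neither, of which the last had 50.5 and 25.5 tags with DMSO and 32.6 and 23.6 with P5091.

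**Figure D4:**
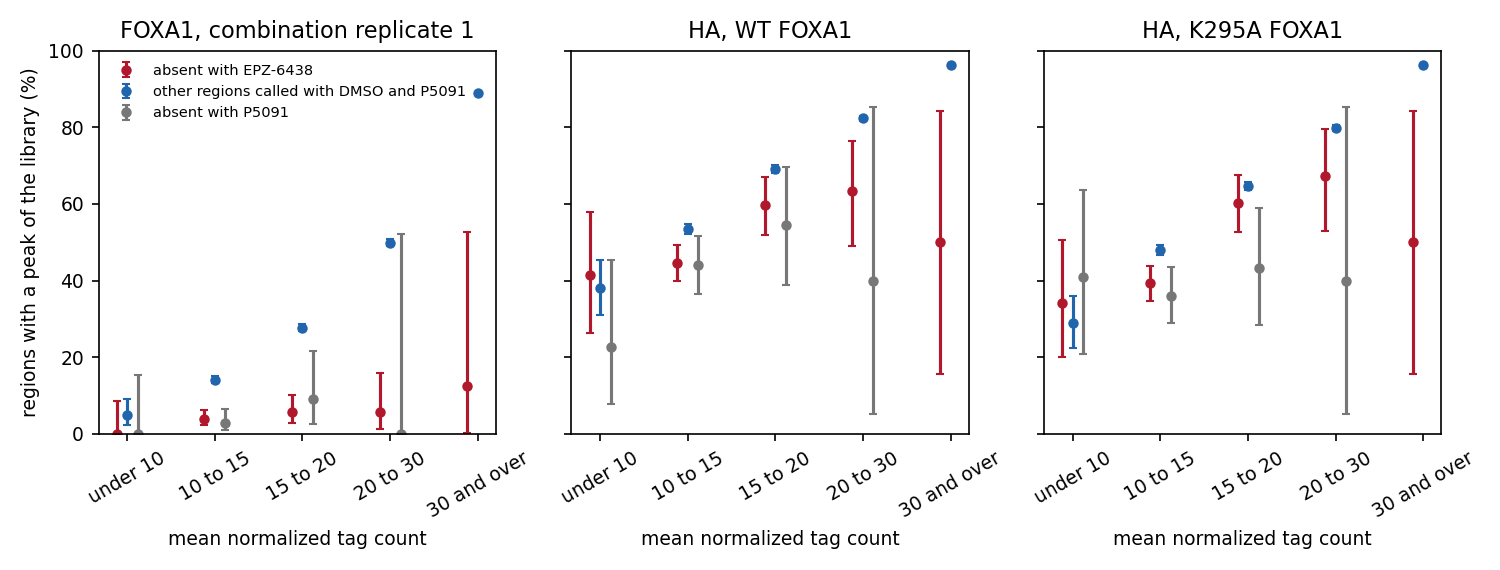
Percentage of regions with a peak in 3 libraries that took no part in the choice, by band of mean normalized tag count, for regions absent with EPZ-6438 (red), other regions called with DMSO and P5091 (blue) and regions absent with P5091 (grey); bars are exact binomial 95% intervals. The red points lie below the blue at 10 to 15 tags in each panel, by the widest margin in combination replicate 1 at 20 tags and over.

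P5091 was compared with DMSO at the 45511 regions called in all 4 of these libraries. The tag counts compared also decided the calls, and regions that lost their call with either treatment are not among those tested, so the comparison speaks only of size differences between called peaks. With limma and Benjamini-Hochberg adjustment no region passed an adjusted p of 0.05 (0% of those tested, smallest adjusted p 1), and none of the 728 did. At an unadjusted p under 0.05 there were 398 regions (0.875%), of which 13 were among the 728 (1.79%, 4 higher and 9 lower with P5091), where 5% of tests pass when nothing differs. This fit left the replicate pairing out. In limma with replicate as a block, 1998 regions (4.39%) passed unadjusted, with 29 of the 728 (3.98%), and none passed after adjustment. The higher share of the 728 was thus not kept with the block. The edgeR quasi-likelihood test on recovered tags also called 0, with 560 regions unadjusted, 17 of them members. The median log2 tag count of the 728 was 4.04 and 3.72 with DMSO and 3.94 and 3.71 with P5091, so the replicates differed more than the treatments. The median log2 difference of P5091 from DMSO was -0.05 at the 728 (quartiles -0.26 and 0.16) and -0.02 over all regions, given as a description without a test. Its sign turned when DMSO replicate 1 (0.10) or P5091 replicate 2 (0.08) was left out.

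Single members with the smallest p-values show the size of difference that did not pass. At chr15:58051118-58051505 tags were 8.04 and 9.29 with DMSO and 16.3 and 16.9 with P5091, a log2 difference of 0.87 ± 0.34 (SE; limma adjusted p = 1). At chr1:77060779-77061191 tags were 13.9 and 16.3 with DMSO and 8.48 and 7.87 with P5091, a log2 difference of -0.81 ± 0.33 (SE; limma adjusted p = 1). The treatment groups did not overlap at either region, which were chosen here for their p-values.

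How far a loss of call seen in 1 replicate was met in the other was read by choosing in each replicate alone, a reading added after the data were seen. The same shares over all regions called with DMSO in that replicate are not given. The percentages and the gaps between libraries therefore have no background to be set against. In replicate 1, 7198 regions were called with DMSO and P5091 and not with EPZ-6438. In replicate 2 these were called at 69.1% with DMSO, 64.2% with P5091, 51.2% with the combination and 45.2% with EPZ-6438. The libraries with EPZ-6438 were the lowest, and EPZ-6438 replicate 2 the lowest of all. That library was the smallest and had the highest minimum, but it also had the most peaks, 84423. The matching choice for P5091 gave 7395 regions in replicate 1. In replicate 2 these were called at 68.0% with DMSO, 68.9% with EPZ-6438, 66.3% with the combination and 59.97% with P5091. In both choices the lowest share in replicate 2 was that of the compound the regions were chosen for, 45.2% and 59.97%. The gap from DMSO was smaller for P5091 than for EPZ-6438. Without a background, neither the order nor the gaps can show how far a loss of call was repeated.

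In the other direction the gap from DMSO was of like size for the 2 compounds. The gap from the other compound was larger for P5091 than for EPZ-6438, again without a background. The 8994 regions called with DMSO and P5091 and not with EPZ-6438 in replicate 2 were called in replicate 1 at 55.5% with DMSO (54.5 to 56.6), 54.9% with P5091 (53.8 to 55.9), 43.2% with EPZ-6438 (42.1 to 44.2) and 8.53% in combination replicate 1. The 6458 regions chosen for P5091 were called at 49.1% with DMSO (47.9 to 50.3), 56.1% with EPZ-6438 (54.9 to 57.3), 37.0% with P5091 (35.9 to 38.2) and 9.85% in combination replicate 1. Here EPZ-6438 replicate 1 was the largest library and had the lowest minimum. In both directions and for both compounds, between 37.0% and 59.97% of the regions absent in 1 replicate had a call with the same compound in the other. Intervals are exact binomial and cover the counting of regions only. The parts of depth and of the caller's minimums in these shares were not tested.

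**Figure D5:**
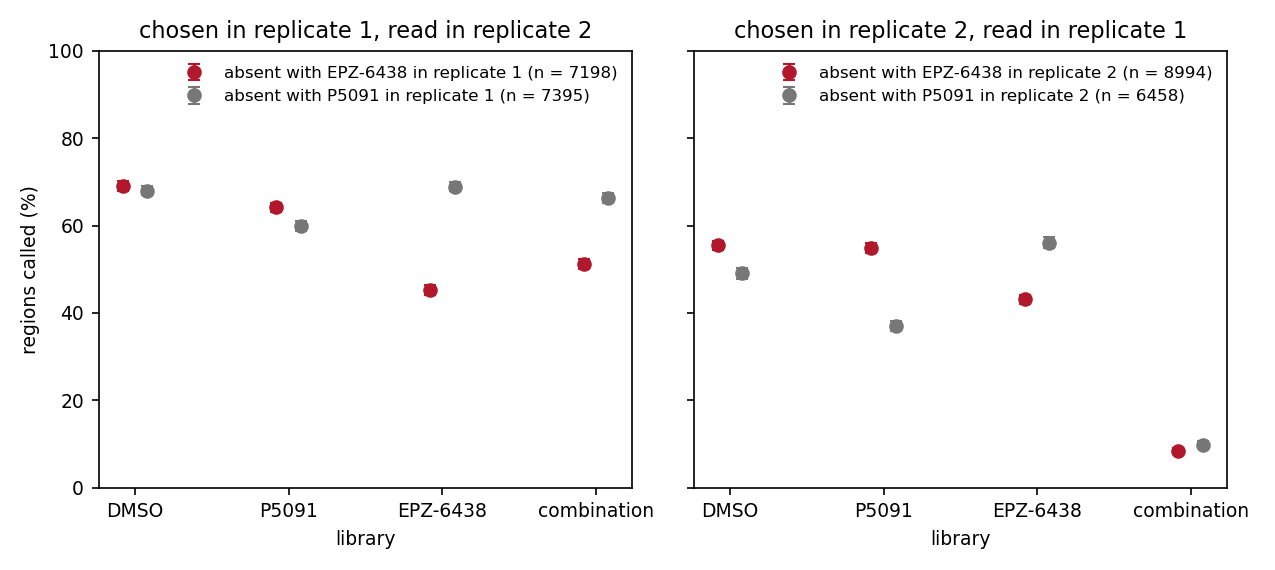
Percentage of regions called in the replicate that took no part in the choice, for regions called with DMSO and the other compound and absent with EPZ-6438 (red) or with P5091 (grey) in replicate 1 (left) or replicate 2 (right); bars are exact binomial 95% intervals. Red points are lowest at EPZ-6438 on the left, 45.2%, and on the right, apart from combination replicate 1, at 43.2%.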

How the data were processed

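Peak lists of 8 FOXA1 and 4 HA libraries of LNCaP cells were used. The submitters' processing notes name Bowtie2, HOMER 4.2 and the build hg19. Each library had its own peak calling per the file headers (FDR 0.001). A peak needed 4-fold the tags of a surrounding window of 10000 bases and, for FOXA1 alone, 4-fold those of its treatment's input, and the p-value of each excess (Poisson, limit 0.0001) was computed by the authors' caller and not used further. The deposited focus ratio, the fraction of a peak's tags placed near its centre, was tabulated but not used. The deposited normalized tag count is a signal, tags per peak scaled to 1e7. The deposited findPeaks score is the tag count behind the caller's minimum and served for margins and stricter limits. The fold over input and over the local window are the authors' ratio for each peak. Whole tags recovered from the normalized tag counts and the deposited library totals came out for 100% of peaks and served as counts for edgeR.

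Peaks sharing at least 1 base were merged, and a library took its highest peak in a region. The members and the lists were chosen with earlier results of these data known. P5091 was compared with DMSO with limma 3.58.1 in R 4.3.3, with a mean-variance trend, on log2 values after adding 1 to the tag count, at 45511 regions, with Benjamini-Hochberg adjustment at 0.05. Tested on simulated data, where 100 of 45511 regions had a 2-fold and another 100 a 4-fold increase, it found 10 and 91 of these and made 4 false calls. edgeR 4.0.16 was the alternative. Since separate cultures are not stated, the spread behind each p-value is that of the libraries and may be technical. Replicate numbers come from the titles. They were taken as pairing the libraries, since deviations of replicate 1 from its group mean correlated at 0.148 to 0.488 between groups, all 6 above 0.1. The main fit of P5091 against DMSO did not use this pairing. Replicate as a block was an alternative fit. Intervals are exact (Clopper-Pearson) at 95% and cover counting error only.

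The regions named are the 10 strongest members, the 5 with the highest lowest fold over input, 3 runs of neighbouring members (of 12 pairs, none longer, those with the highest total tag count), the 3 farthest from an EPZ-6438 peak, the 3 strongest called in combination replicate 1, the 3 strongest without WT and K295A peaks, the 3 weakest and the 3 strongest regions just outside. The 2 members with the smallest p were added after their values were seen. Genes near the regions and their sequences were not analysed here.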

Additional observations from a re-analysis of the deposited data

How the results depend on the processing

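The number of regions depended on the caller's limit and on each library. With only peaks of a score of at least 20 it was 443 in place of 728, and when 1 of the 7 libraries was left out it was 1028 to 1560 (1101 without DMSO replicate 1, 1028 without DMSO replicate 2, 1156 and 1278 without P5091 replicates 1 and 2, 1497 and 1240 without EPZ-6438 replicates 1 and 2, 1560 without combination replicate 2), where fewer libraries make the choice less strict by construction. It was 689 with peaks joined by centres, 636 with no EPZ-6438-treated peak within 1000 bases and 696 when combination replicate 1 also had to lack the region. The share called in combination replicate 1 was 0.677% at a score of at least 20, 3.37% to 12.1% without 1 library, the highest without combination replicate 2, and 4.72% without the regions that had a close EPZ-6438-treated peak (chosen after seeing the data). The WT share was 44.1% with centres within 100 bases, 22.9% with HA scores of at least 17 and 42.7% to 57.4% without 1 library. The K295A share was 40.4%, 22.1% and 37.6% to 51.3%. The distance to the nearest EPZ-6438 peak was 9243 bases for replicate 1 alone and 8638.5 for replicate 2 alone, since each list is shorter. The fold over input was 15.1 to 15.7 without 1 library. The P5091 count was 0 in each fit; with the replicate block 1998 regions passed unadjusted, 29 of them members, and the block changed no call. The median log2 difference of P5091 from DMSO at the 728 was -0.20 to 0.10 without 1 library, 0.10 without DMSO replicate 1 and 0.08 without P5091 replicate 2; the cause was not tested.

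Of 77 alternatives over 9 results, 54 left the result within its error, on the same side of its threshold or, for a count, within 1.5 times. Depth differs between EPZ-6438 replicates, and 1 input served both replicates of a treatment. Regions without a peak carry no tag count here, so no signal level with EPZ-6438 and no fold change is given.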
